A study of Mus musculus with 12 samples.

Results

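Focal adhesions are the sites at which a cell holds on to its matrix, and 10 genes for their adaptors and kinases were followed here: Vcl, Tln1, Tln2, Pxn, Zyx, Ptk2, Ilk, Parva, Tns1 and Bcar1. They were taken by name from the deposited table of raw RNA-seq counts, which lists 33246 genes, and all 10 were present and passed the expression filter that left 14542 genes for testing. The RNA came from mouse ear fibroblasts. The study isolated such cells from C57BL/6 mice of 1 month of age and of both sexes, and from Tau-EGFP reporter mice. Which of these mice gave the RNA-seq samples is not given in the sources used here. Cells of passage 2 were seeded at 500000 per sample and kept for 48 h on alginate hydrogels carrying the RGD adhesion peptide. The 4 groups were 2 kPa Elastic, 20 kPa Elastic, 2 kPa Viscoelastic and 20 kPa Viscoelastic, with 3 samples each. Elastic gels were crosslinked covalently and viscoelastic gels ionically, the latter being the slow-relaxing kind, so gel type and crosslinking chemistry cannot be told apart. The study calls the samples biological replicates, but the labels do not tie them to separate animals or isolations, so p-values measure the spread between these samples.

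Integrins have no enzyme activity of their own and reach the actin cytoskeleton through adaptor proteins. Talin, encoded by Tln1 and Tln2, binds the integrin tail and unfolds under tension, and vinculin, the product of Vcl, then binds to the exposed sites in talin and strengthens the link to actin. The kinase FAK, encoded by Ptk2, and the scaffolds paxillin (Pxn) and p130Cas (Bcar1) form the signalling layer, while integrin-linked kinase (Ilk) is a pseudokinase that joins parvins such as that of Parva to the adhesion. Zyxin (Zyx) is a LIM-domain protein that gathers at stressed actin fibres and mature adhesions, and tensin 1 (Tns1) is found in the long fibrillar adhesions that remodel fibronectin.

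Between 36626221 and 43612804 counts were obtained per sample, and the 10 genes together took 0.167% to 0.207% of them. Values below are CPM, counts scaled to library size, after TMM normalization with factors of 0.968 to 1.03. All 10 fibroblast markers on the list used were detected, with a summed level of 23726 to 29266 CPM. All 4 chondrocyte markers were also high, Col2a1 with a mean of 2838 CPM, Acan with 1139 CPM, Comp with 640.2 CPM and Sox9 with 440.2 CPM. Summed, these 4 ran from 4319 to 4364 CPM in the 20 kPa Elastic samples and from 4594 to 5891 CPM in the other groups, so the fibroblast label was met together with strong cartilage genes. Their part in the results below was not tested. Keratinocyte, endothelial, immune, skeletal muscle, melanocyte and Schwann, and adipocyte lists summed to at most 10.9 CPM in any sample, with Tyr at 0 in all. In bulk RNA, fewer cells of a type and less RNA per cell cannot be told apart. Other properties moved with the samples. The 3 pairs of 2 kPa Viscoelastic replicates differed by 37.4 to 55.5 times the variance of counting alone, against 11.2 to 39.7 times in the other groups, and replicate 2 was the lowest of that group for 9 of the 10 genes. The mitochondrial share of counts was highest in replicate 2 of 2 kPa Viscoelastic, at 2.97%, and replicate 2 of 20 kPa Viscoelastic, at 3.34%, and from 1.77% to 2.68% in the other samples. Both libraries were the lowest of their groups for Vcl, Tln1, Tln2, Ptk2, Ilk and Parva. The part of the mitochondrial share in these values was not tested. In addition, long transcripts were relatively more abundant on elastic gels, by 0.0052 to 0.0511 log2 units per doubling of exon length, against −0.0603 to 0.00012 on viscoelastic gels. GC-rich transcripts were relatively more abundant on 2 kPa Elastic gels, by 0.0099 to 0.0945 log2 units per 10 points of GC. On 20 kPa Elastic gels this GC trend was −0.0487 to −0.0204, and on viscoelastic gels it ran from −0.0613 to 0.0477. Since Tln2 and Tns1 lie at the 98.9th and 97.9th percentile of exon length, results of the 10 genes are also given with a correction for length and GC content where it ended or added a call, or moved a called value by over 1.5 times. The calls of other genes are given without it.

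The promoters of Vcl and Zyx are shown because these genes moved furthest with gel type at 20 kPa and with stiffness on elastic gels. RefSeq windows (GRCm38.p6), from 250 bases before to 50 bases after the annotated start, were matched for 6 of the 10 genes: Vcl, Tln1, Zyx, Ilk, Tns1 and Bcar1. They were searched on both strands for the CArG box (the site of serum response factor), for GGAATG (the TEAD motif) and for TGANTCA (the AP-1 motif). These motifs occur in 1.63%, 14.7% and 7.81% of all 32851 windows. Capitals mark the matches, 5′ to 3′ on the gene's strand, with Vcl at chr14:20929148-20929447 (+) and Zyx at chr6:42349578-42349877 (+).
Vcl: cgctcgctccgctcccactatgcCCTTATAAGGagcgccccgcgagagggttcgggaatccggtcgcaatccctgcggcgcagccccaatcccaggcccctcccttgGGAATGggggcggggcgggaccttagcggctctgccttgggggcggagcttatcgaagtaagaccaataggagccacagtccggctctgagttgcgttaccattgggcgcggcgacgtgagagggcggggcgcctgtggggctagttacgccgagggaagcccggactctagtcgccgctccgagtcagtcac
Zyx: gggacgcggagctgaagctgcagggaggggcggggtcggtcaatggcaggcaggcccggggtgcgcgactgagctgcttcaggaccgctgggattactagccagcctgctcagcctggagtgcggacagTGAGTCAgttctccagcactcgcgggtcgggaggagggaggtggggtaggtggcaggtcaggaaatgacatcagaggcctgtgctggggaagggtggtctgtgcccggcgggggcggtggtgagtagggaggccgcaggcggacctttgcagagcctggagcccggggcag
The Vcl window held a CArG box 227 bases and GGAATG 143 bases upstream of the start, and the Zyx window held TGAGTCA 121 bases upstream. These starts are those of RefSeq. The GENCODE start of Zyx, at 42349630, lies inside the window and before TGAGTCA. The windows of Tln1, Ilk, Tns1 and Bcar1 had no match to these letters. A match is a description of the sequence and was not linked to binding here.

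Per kilobase of exon, Tln1 stood highest of the 10 genes. The length used joins the exons of all annotated transcripts of a gene. Which transcripts the cells used was not measured, so the order depends on these lengths, and the SD does not cover this. On 2 kPa Elastic gels Tln1 stood at 61.5 ± 4.49 CPM per kb (SD, n = 3), followed by Parva at 38.9 ± 0.847 (SD, n = 3), Zyx at 31.0 ± 2.31 (SD, n = 3) and Vcl at 27.8 ± 2.03 CPM per kb (SD, n = 3). Zyx and Vcl lay close together, with ranges of 29.2 to 33.6 and 25.5 to 29.3 CPM per kb that overlapped narrowly. The middle of the order was held by Tns1 at 14.9 ± 1.28 and Bcar1 at 10.1 ± 0.634 CPM per kb (SD, n = 3 each). Ptk2 at 6.83 ± 0.241 and Pxn at 6.72 ± 0.476 CPM per kb (SD, n = 3 each) did not differ beyond their spread. Talin 2 was at 4.95 ± 0.257 CPM per kb (SD, n = 3), and Ilk was last at 1.31 ± 0.151 (SD, n = 3). The place of Ilk is uncertain, as 89.7% of its exon bases are also exons of Taf10 or Rrp8 on the opposite strand.

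**Figure D1:**
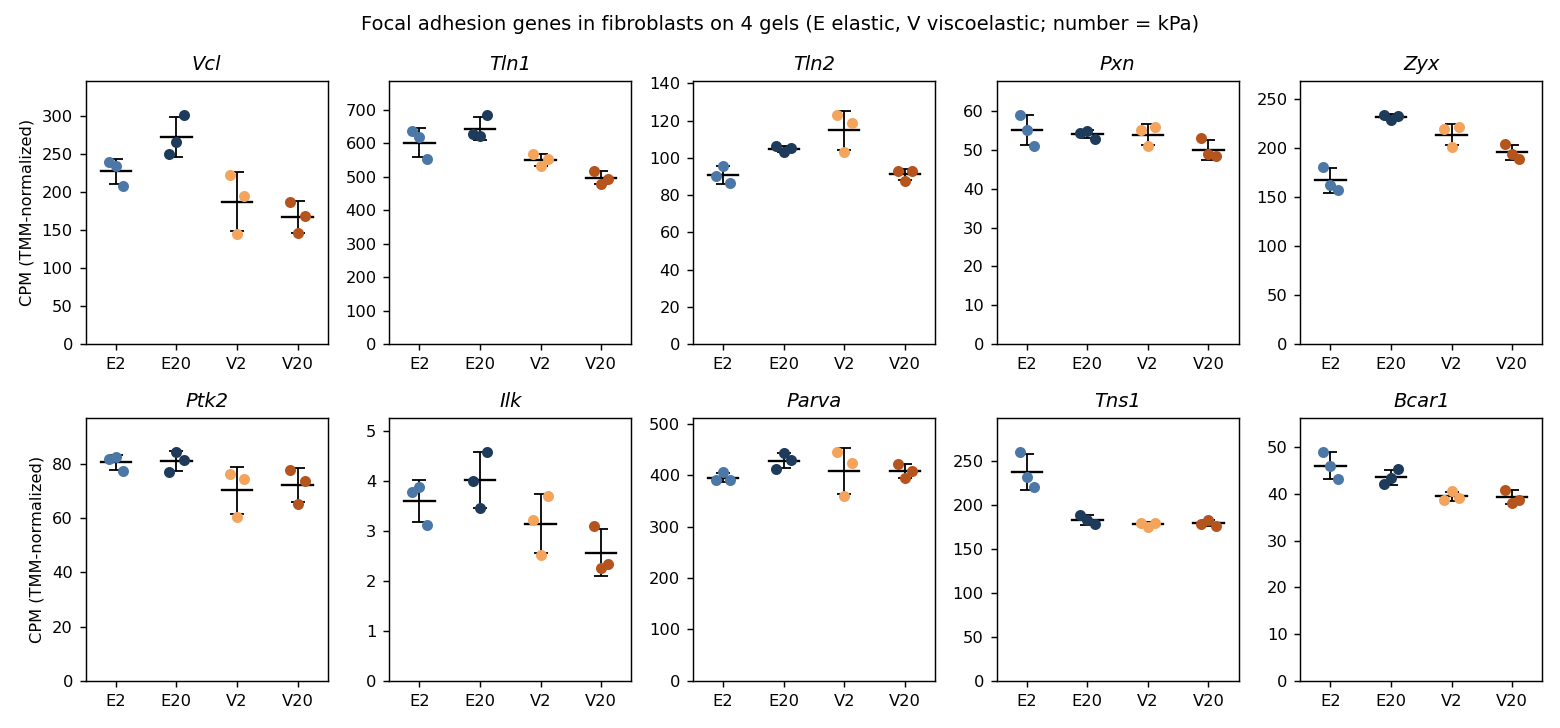
TMM-normalized CPM (vertical axes, from 0) of the 10 genes in the 4 groups, with E for elastic and V for viscoelastic gels and the number giving the stiffness in kPa. Points are single samples, and horizontal bars are group means with whiskers of 1 SD (n = 3). Vcl and Tln1 have their lowest means on 20 kPa Viscoelastic gels, Zyx has its lowest on 2 kPa Elastic gels, and Tns1 has its highest there.

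Vinculin RNA separated the 20 kPa gels most clearly. Vcl (ENSMUSG00000021823.10, mm10, chromosome 14, 20929398 to 21033676, plus strand) measured 251, 266 and 301 CPM in the 3 samples on 20 kPa Elastic gels and 187, 146 and 169 CPM on 20 kPa Viscoelastic gels. The highest viscoelastic sample was thus below the lowest elastic one. Its level was 0.614 times that on the elastic gel (log2 fold change −0.70, SE 0.128, edgeR quasi-likelihood test, Benjamini-Hochberg (BH) adjusted p = 0.000965). At 2 kPa, Vcl measured 239.8, 234 and 209 CPM on elastic gels and 222, 145 and 196 CPM on viscoelastic gels. These groups overlapped, and replicate 2 of the viscoelastic group was the low one. The log2 fold change of −0.28 (SE 0.128) did not pass (edgeR, adjusted p = 0.14), and without that replicate it was −0.11 (edgeR, adjusted p = 0.503). Averaged over both stiffnesses, Vcl was lower on viscoelastic gels by a log2 fold change of −0.49 (SE 0.0905, edgeR, adjusted p = 0.00073), and by −0.42 without that replicate (edgeR, adjusted p = 0.000487). Of the Vcl exon bases, 25.5% are shared with Ap3m1 on the opposite strand, whose means lay between 55.0 and 61.5 CPM in the 4 groups.

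Talin 1 followed vinculin in direction, with a smaller change. Tln1 (ENSMUSG00000028465.16, chromosome 4, 43531519 to 43562691, minus strand) measured 628, 621 and 684 CPM in the 20 kPa Elastic group, and its values on 20 kPa Viscoelastic gels were 518, 479.5 and 494 CPM. No value of one group reached the other. The log2 fold change was −0.37 (SE 0.069, edgeR, adjusted p = 0.00106), so that Tln1 RNA fell by 22.8%. With the length and GC correction it was −0.24 (edgeR, adjusted p = 0.0117). At 2 kPa the values were 637, 618 and 553 CPM on elastic gels and 567, 532 and 553 CPM on viscoelastic gels. Here the groups overlapped, and the log2 fold change of −0.13 (SE 0.0689) did not pass (edgeR, adjusted p = 0.198). It was positive after the length and GC correction, at 0.06 (edgeR, adjusted p = 0.592). The mean over both stiffnesses was −0.25 on the log2 scale (SE 0.0487, edgeR, adjusted p = 0.00103), and −0.09 after the length and GC correction (edgeR, adjusted p = 0.127), which ended the call.

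Talin 2, the paralog, had another order of groups. Tln2 (ENSMUSG00000052698.15, chromosome 9, 67217087 to 67559703, minus strand) measured 90.4, 95.8 and 86.4 CPM on 2 kPa Elastic gels and 123, 103 and 119 CPM on 2 kPa Viscoelastic gels. All 3 viscoelastic samples were above all 3 elastic ones (log2 fold change 0.34, SE 0.0661, edgeR, adjusted p = 0.00291). At 20 kPa the order turned: elastic gels gave 106, 103 and 105 CPM and viscoelastic gels 92.8, 87.8 and 92.7 CPM. Again no values overlapped, with a log2 fold change of −0.20 (SE 0.0661, edgeR, adjusted p = 0.0279). With the length and GC correction the latter was −0.07 (edgeR, adjusted p = 0.429), so the fall at 20 kPa was lost under that correction. The rise at 2 kPa was not, at 0.51 (edgeR, adjusted p = 9.28e-05).

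To set the paralogs against each other, the share of Tln2 in the summed talin level per kilobase was computed in each sample, with no correction for the length trend. It was 7.05%, 7.65% and 7.70% on 2 kPa Elastic gels and 8.29%, 8.15% and 7.60% on 20 kPa Elastic gels. On viscoelastic gels it was 10.4%, 9.38% and 10.3% at 2 kPa and 8.72%, 8.90% and 9.11% at 20 kPa. The 6 viscoelastic samples were all above the 6 elastic ones. Group means were 7.47% ± 0.364, 8.01% ± 0.367, 10.0% ± 0.547 and 8.91% ± 0.195 (SD, n = 3 each) for 2 kPa Elastic, 20 kPa Elastic, 2 kPa Viscoelastic and 20 kPa Viscoelastic. The union of Tln2 exons is 18.4 kb and that of Tln1 9.80 kb, and the size of the share depends on these lengths. The longest transcripts of Tln2 and Tln1 have a GC content of 53.1% and 57.0%. The part of the length and GC trends in the share was not tested.

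Zyxin gave the largest response to stiffness. Zyx (ENSMUSG00000029860.16, chromosome 6, 42349630 to 42360213, plus strand) measured 181, 163 and 157 CPM on 2 kPa Elastic gels and 233, 228 and 233 CPM on 20 kPa Elastic gels. The gap between the groups was larger than the spread within either, and the level was 1.39-fold higher on the stiff gel (log2 fold change 0.47, SE 0.0638, edgeR, adjusted p = 0.000295). On viscoelastic gels Zyx measured 219, 201 and 221 CPM at 2 kPa and 204, 194 and 189 CPM at 20 kPa. These samples overlapped and lay between both elastic groups (20 against 2 kPa: log2 fold change −0.13, SE 0.0636, edgeR, adjusted p = 0.298). Viscoelastic gels therefore had more Zyx RNA than elastic gels at 2 kPa (log2 fold change 0.36, SE 0.0638, edgeR, adjusted p = 0.00164) and less at 20 kPa (−0.24, SE 0.0636, edgeR, adjusted p = 0.00936). Of the Zyx exon bases, 4.38% are shared with Epha1 on the opposite strand. Epha1 was far lower, with means of 3.94, 7.27, 6.22 and 4.81 CPM on 2 kPa Elastic, 20 kPa Elastic, 2 kPa Viscoelastic and 20 kPa Viscoelastic gels, in the same order as Zyx. The summed endothelial markers ran from 2.02 to 2.30, 3.15 to 3.36, 2.90 to 3.50 and 2.20 to 2.80 CPM in these groups, and their part in the Zyx values was not tested.

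Tensin 1 set the 2 kPa Elastic gels apart from the other 3 groups. Tns1 (ENSMUSG00000055322.15, chromosome 1, 73910231 to 74124449, minus strand) measured 261, 232 and 221 CPM there, against 189, 183 and 178 CPM on 20 kPa Elastic gels. Every soft sample was higher than every stiff one (20 against 2 kPa: log2 fold change −0.38, SE 0.0619, edgeR, adjusted p = 0.0012). On viscoelastic gels Tns1 measured 179.6, 176 and 180.3 CPM at 2 kPa and 179, 183 and 176 CPM at 20 kPa. These 6 values spanned less than the 3 soft elastic ones alone. Tns1 fell by 0.41 on the log2 scale from elastic to viscoelastic gels at 2 kPa (SE 0.0619, edgeR, adjusted p = 0.000494). Both calls held with the length and GC correction at smaller sizes, −0.24 for stiffness on elastic gels (edgeR, adjusted p = 0.0135) and −0.20 for gel type at 2 kPa (edgeR, adjusted p = 0.0269). At 20 kPa the log2 fold change was −0.03 with a 95% interval of −0.16 to 0.10 (edgeR, adjusted p = 0.736). The mean over both stiffnesses, −0.22 (SE 0.0437, edgeR, adjusted p = 0.00114), was −0.04 after the length and GC correction (edgeR, adjusted p = 0.527).

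Among the signalling genes, Bcar1 moved by a small and even amount. Bcar1 (ENSMUSG00000031955.10, chromosome 8, 111710474 to 111743809, minus strand) measured 48.9, 45.9 and 43.1 CPM on 2 kPa Elastic gels and 42.0, 43.3 and 45.3 CPM on 20 kPa Elastic gels. On viscoelastic gels it measured 38.7, 40.6 and 39.2 CPM at 2 kPa and 40.9, 38.0 and 38.8 CPM at 20 kPa. It was the only one of the 10 genes for which all 6 viscoelastic samples lay below all 6 elastic ones, as against 12.4% of all tested genes that separated the gel types in either direction. The mean log2 fold change was −0.19 (SE 0.0416, edgeR, adjusted p = 0.00265). At 2 kPa it was −0.22 (SE 0.0588, edgeR, adjusted p = 0.0162), and after the length and GC correction −0.10 (edgeR, adjusted p = 0.209). At 20 kPa the value of −0.15 (SE 0.0588) did not pass (edgeR, adjusted p = 0.0596). It lay near the threshold, and passed with DESeq2's size factors (edgeR, adjusted p = 0.0451), by DESeq2's Wald test (adjusted p = 0.042), and in edgeR without replicate 1 of 20 kPa Elastic or replicate 2 of 2 kPa Viscoelastic (adjusted p = 0.0431 and 0.0301).

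FAK RNA was slightly lower on viscoelastic gels. Ptk2 (ENSMUSG00000022607.17, chromosome 15, 73205102 to 73423280, minus strand) measured 81.8, 82.6 and 77.3 CPM in the 2 kPa Elastic group and 77.1, 84.4 and 81.7 CPM in the 20 kPa Elastic group. On viscoelastic gels it measured 76.2, 60.5 and 74.4 CPM at 2 kPa and 77.6, 65.3 and 73.6 CPM at 20 kPa. Replicate 2 was the low sample in both viscoelastic groups, and at 20 kPa the gel types overlapped. The mean log2 fold change of −0.18 (SE 0.059) passed (edgeR, adjusted p = 0.0237), while neither stiffness alone did (edgeR, adjusted p = 0.112 and 0.136). After the length and GC correction it was −0.07 (edgeR, adjusted p = 0.293).

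Paxillin was not called in any comparison. Pxn (ENSMUSG00000029528.18, chromosome 5, 115506676 to 115555987, plus strand) measured 58.9, 55.2 and 51.1 CPM on elastic gels of 2 kPa and 54.4, 54.9 and 52.9 CPM on those of 20 kPa. On viscoelastic gels the values were 55.1, 50.9 and 55.9 CPM at 2 kPa and 53.0, 48.9 and 48.3 CPM at 20 kPa. The groups overlapped in each of the 4 pairs. The mean difference between viscoelastic and elastic gels, −0.07 on the log2 scale, had a 95% interval of −0.16 to 0.02 (edgeR, adjusted p = 0.227).

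Of the ILK and parvin pair, only Ilk was called. Ilk (ENSMUSG00000030890.16, chromosome 7, 105736592 to 105742925, plus strand) measured 4.02, 3.47 and 4.59 CPM on 20 kPa Elastic gels and 3.11, 2.26 and 2.33 CPM on 20 kPa Viscoelastic gels. The groups did not overlap (log2 fold change −0.64, SE 0.169, edgeR, adjusted p = 0.00951). At 2 kPa it measured 3.79, 3.89 and 3.13 CPM on elastic and 3.22, 2.52 and 3.70 CPM on viscoelastic gels, which overlapped, with a log2 fold change of −0.20 (SE 0.168, edgeR, adjusted p = 0.438). These levels rest on 93 to 186 counts per sample. Taf10, which covers 76.7% of the Ilk exon bases, had means of 20.2, 20.9, 21.2 and 24.0 CPM on 2 kPa Elastic, 20 kPa Elastic, 2 kPa Viscoelastic and 20 kPa Viscoelastic gels. Whether the counting used strand is not given in the sources used here, and without it reads of these genes cannot be told apart, so the Ilk values are uncertain.

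Alpha-parvin, in contrast, was abundant and was called nowhere. Parva (ENSMUSG00000030770.15, chromosome 7, 112427505 to 112591692, plus strand) measured 389.7, 405 and 391 CPM on elastic gels of 2 kPa and 413, 442 and 429 CPM on those of 20 kPa. Viscoelastic gels gave 445, 359 and 423 CPM at 2 kPa and 422, 395 and 409 CPM at 20 kPa, the former spanning all the others. The 2 elastic groups did not overlap, but the log2 fold change of 0.11 (SE 0.0731) did not pass (edgeR, adjusted p = 0.33). The mean difference between gel types was −0.01 with a 95% interval of −0.12 to 0.10 on the log2 scale (edgeR, adjusted p = 0.906).

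**Figure D2:**
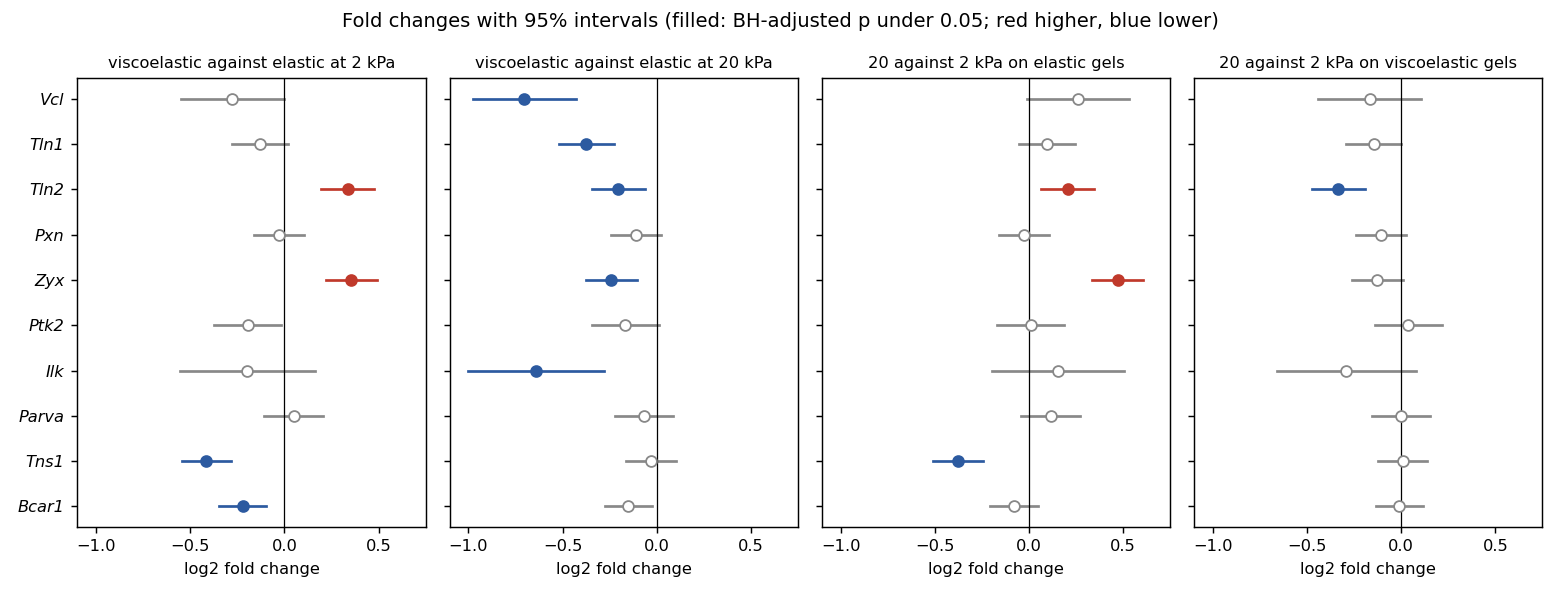
Log2 fold changes (horizontal axes) of the 10 genes in the 4 comparisons of 2 groups, with 95% intervals. Filled red and blue points passed edgeR's test at a BH-adjusted p under 0.05 as higher and lower. At 20 kPa all 10 points lie left of 0, from −0.70 for Vcl to −0.03 for Tns1, and on viscoelastic gels Tln2 is the one gene called for stiffness.

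Counted together, the calls between gel types went both ways at 2 kPa and were all lower at 20 kPa. At 2 kPa, 4 of 10 passed between gel types, with Tln2 and Zyx higher and Tns1 and Bcar1 lower on viscoelastic gels, when 19.9% of all tested genes passed, 8.77% higher and 11.1% lower (1275 and 1617 genes, or 1675 and 1258 with scaling by total counts alone). The groups of 5 of the 10 genes did not overlap, as against 36.3% of all genes. At 20 kPa, 5 of 10 passed, Vcl, Tln1, Tln2, Zyx and Ilk, all lower on viscoelastic gels, when 33.5% of all genes passed, 17.4% higher and 16.1% lower. Here 6 of the 10 genes had groups that did not overlap, as against 49.9% of all genes. The median log2 fold change of the 10 genes was −0.16 at 2 kPa and −0.19 at 20 kPa, as against −0.000075 and 0.016 for all tested genes. All 10 estimates at 20 kPa and 7 of 10 at 2 kPa were negative, beside 6953 and 7273 of the 14542 genes tested. At 20 kPa, however, Tns1 was at 0.0048 with scaling by total counts alone, and Pxn, Parva and Tns1 were positive after the length and GC correction.

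Averaged over stiffness, 6 of 10 passed, Vcl, Tln1, Ptk2, Ilk, Tns1 and Bcar1, each lower on viscoelastic gels. Over all genes 40.0% passed in that average, 19.6% higher and 20.4% lower (2846 and 2971 genes, or 3538 and 2309 with scaling by total counts alone). The length and GC correction changed this count to 5, when 35.5% of all genes passed. Tln1, Ptk2 and Tns1 no longer passed, while Tln2 at 0.22 (edgeR, adjusted p = 0.00118) and Zyx at 0.14 (edgeR, adjusted p = 0.02) passed as higher. Vcl, Ilk and Bcar1 remained lower, at −0.41, −0.50 and −0.12 (edgeR, adjusted p = 0.00192, 0.00546 and 0.0277). The Ilk value is uncertain, as 89.7% of its exon bases are shared with genes on the opposite strand.

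**Figure D3:**
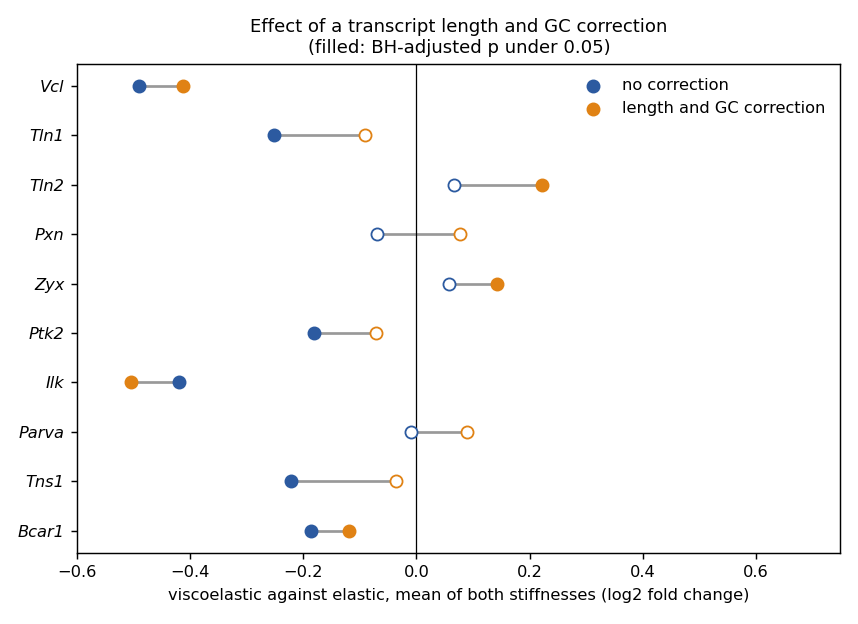
Mean log2 fold change of viscoelastic against elastic gels (horizontal axis) for each of the 10 genes, without a correction (blue) and with per-sample trends on exon length and GC content removed (orange). Filled points passed edgeR's test at a BH-adjusted p under 0.05. The correction moves 9 genes to the right, Tns1 from −0.22 to −0.04, and Ilk, the shortest of the 10, to the left.

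Zyx, Tln2 and Tns1 were the genes called for stiffness. From 2 to 20 kPa on elastic gels 3 of 10 passed, Zyx and Tln2 higher and Tns1 lower, when 14.0% of all genes passed (6.81% higher and 7.14% lower). With the length and GC correction 4 passed, beside 14.2% of all genes, since Tln1 was added as higher at 0.22 (edgeR, adjusted p = 0.0288, or 0.0451 with the replicate block). The groups of Vcl, Tln2, Zyx, Parva and Tns1 did not overlap, 5 of 10 as against 35.6% of all genes. On viscoelastic gels 1 of 10 passed, Tln2, lower on the stiff gel (log2 fold change −0.33, SE 0.0661, edgeR, adjusted p = 0.0232), when 2.28% of all genes passed (1.58% higher and 0.695% lower). The length and GC correction ended that call (−0.26, edgeR, adjusted p = 0.05002). Tln1 and Tln2 were the 2 genes of 10 whose groups did not overlap there, as against 22.3% of all genes. Of these stiffness calls, that of Tln2 on elastic gels was the weakest (log2 fold change 0.21, SE 0.0661, edgeR, adjusted p = 0.0496), with adjusted p-values of 0.00334 to 0.167 over 20 alternatives, 12 of which lost it. The lowest came with the length and GC correction, where the value was 0.31. The call of Tln2 on viscoelastic gels was lost in 8 of 20, at up to 0.102. These comparisons share samples with those between gel types, so the calls are not independent of each other.

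The difference between both stiffness responses was tested directly as an interaction, in which the elastic-gel response to 20 against 2 kPa is subtracted from the viscoelastic-gel one. It passed for 3 of 10 genes, 1 positive and 2 negative, when 7.56% of all genes passed (4.45% positive and 3.12% negative). Zyx had the largest value at −0.60 (SE 0.0901, edgeR, adjusted p = 0.000982), from a rise of 0.47 on elastic gels and a value of −0.13 on viscoelastic gels that did not pass. Tln2 had −0.54 (SE 0.0935, edgeR, adjusted p = 0.0026), rising with stiffness on elastic gels and falling on viscoelastic ones. Tns1 had 0.38 (SE 0.0875, edgeR, adjusted p = 0.015), from a fall of 0.38 on elastic gels and a value of 0.01 on viscoelastic gels that did not pass. For Vcl the interaction was −0.43 (SE 0.181, edgeR, adjusted p = 0.172), and −0.62 without replicate 2 of the 2 kPa Viscoelastic group (edgeR, adjusted p = 0.0157). For Tln1 it was −0.24 (SE 0.0975, edgeR, adjusted p = 0.15), and for Ilk −0.45 (SE 0.239, edgeR, adjusted p = 0.292). The other 4 genes had interactions between −0.12 and 0.07 that did not pass, with edgeR adjusted p-values of at least 0.563.

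**Figure D4:**
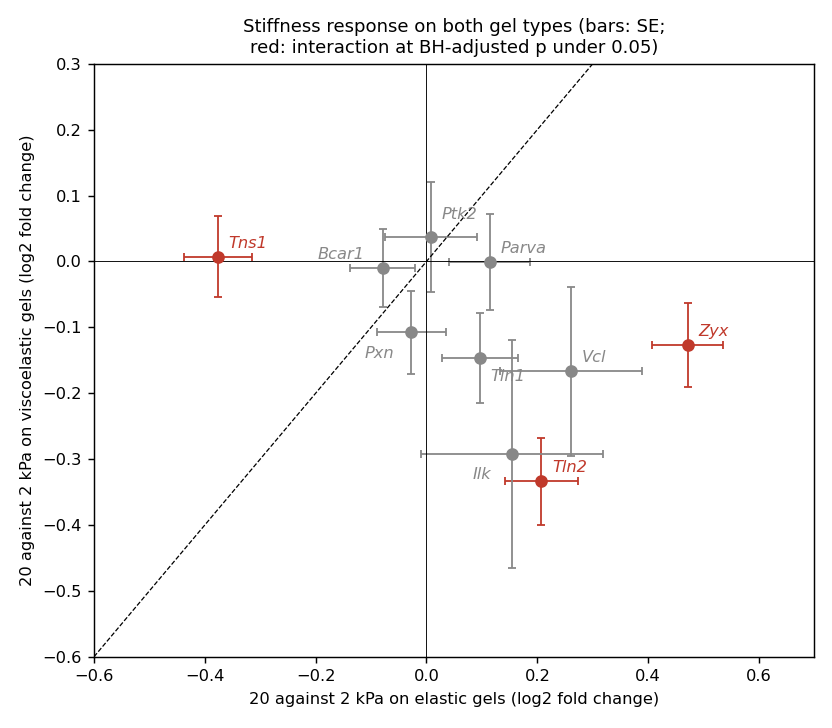
Log2 fold change of 20 against 2 kPa on elastic gels (horizontal axis) and on viscoelastic gels (vertical axis) for the 10 genes, with bars of 1 SE and a dashed line where both responses are equal. Red marks the 3 genes whose interaction passed edgeR's test: Zyx and Tln2 lie below the line at the right, and Tns1 lies at the left near 0 on the vertical axis.

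The other known proteins of these complexes were taken from 7 lists with 56 genes, of which 54 were tested (Fermt1 and Parvg had at most 2 counts in any sample). Averaged over stiffness, 9 of the 54 rose and 13 fell on viscoelastic gels, 22 in all, beside the 40.0% of all tested genes that passed. Their median log2 fold change was −0.03, against 0.0097 for all tested genes. At 20 kPa 8 rose and 9 fell, where 33.5% of all genes passed, and at 2 kPa 7 rose and 5 fell, where 19.9% did. These counts lay near the shares over the whole table. From 2 to 20 kPa, 7 rose and 7 fell on elastic gels, beside 14.0% of all genes, while on viscoelastic gels 2 passed, both of them higher on the stiff gel, beside 2.28%. The counts per list that follow are for the average over stiffness unless another comparison is named, and stand beside 19.6% of all genes higher and 20.4% lower. No list was tested against these shares.

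Among the talin activators and KANK proteins 1 of 9 tested genes passed: Kank4, of a family that ties talin to cortical microtubule complexes, rose on viscoelastic gels (mean log2 fold change 0.55, edgeR, adjusted p = 0.000357). Apbb1ip, the RIAM adaptor that brings talin to Rap1, went from 25.1 ± 0.526 to 37.9 ± 2.77 CPM (SD, n = 3 each) between 2 and 20 kPa on elastic gels (log2 fold change 0.59, edgeR, adjusted p = 0.000149). The interaction passed for both, at 0.79 for Kank4 (edgeR, adjusted p = 0.0167) and −0.35 for Apbb1ip (edgeR, adjusted p = 0.0447). In the ILK-PINCH-parvin list, 2 of 4 tested genes rose and 1 fell. Rsu1, which binds PINCH, rose from 106 ± 0.282 CPM on 2 kPa Elastic to 129 ± 6.22 CPM on 2 kPa Viscoelastic gels (SD, n = 3 each) and by 0.28 on the log2 scale on average (edgeR, adjusted p = 0.00016). Parvb, the second parvin, fell by 0.46 (edgeR, adjusted p = 0.00157) while rising by 0.59 with stiffness on elastic gels (edgeR, adjusted p = 0.00863). Lims2, or PINCH2, had an interaction of −1.31 (edgeR, adjusted p = 0.00967) at levels of 1.19 to 2.47 CPM.

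Of the LIM-domain and VASP proteins, 1 of 11 rose and 2 fell, 3 in all beside 40.0% of all genes. Evl rose by 0.13 (edgeR, adjusted p = 0.0368), and Limd1 fell by 0.19 (edgeR, adjusted p = 0.00194). Enah, the Ena/VASP actin regulator Mena, was highest in the same group as Tns1, with 161 ± 1.53 CPM (SD, n = 3) on 2 kPa Elastic gels and means of 123 to 131 CPM in the other 3 groups, with a fall of 0.40 by stiffness on elastic gels (edgeR, adjusted p = 0.00286). The interaction passed for Enah at 0.45 (edgeR, adjusted p = 0.0167), for Evl at 0.42 (edgeR, adjusted p = 0.0144) and, with the sign of Zyx, for Tgfb1i1 (Hic-5) at −0.35 (edgeR, adjusted p = 0.0182). Of the kinases and phosphatases 3 of 9 passed, each lower on viscoelastic gels, led by Abl1 at −0.25 (edgeR, adjusted p = 0.00291). The FAK relative Ptk2b rose with stiffness on elastic gels by 0.38 (edgeR, adjusted p = 0.016).

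Among the CAS, CRK, DOCK, GIT and PIX scaffolds, which act with Bcar1 in Rac signalling, 4 of 15 rose and 5 fell, 9 in all beside the same 40.0%. The ELMO pair split, with Elmo1 at 0.67 (edgeR, adjusted p = 0.000458) and Elmo2 at −0.23 (edgeR, adjusted p = 0.00156). The interaction passed for Bcar3 at 0.93 (edgeR, adjusted p = 0.00499), Nck2 at 0.59 (edgeR, adjusted p = 0.00483) and Arhgef6, or alpha-PIX, at 0.45 (edgeR, adjusted p = 0.0245). Arhgef6 fell by 0.46 with stiffness on elastic gels (edgeR, adjusted p = 0.00172). All 3 of the other tensins passed for stiffness on elastic gels, beside 14.0% of all genes (6.81% higher and 7.14% lower). Tns2 fell by 0.31 (edgeR, adjusted p = 0.00786) and Tns3 by 0.26 (edgeR, adjusted p = 0.0178), as Tns1 did, while Tns4 rose by 0.58 (edgeR, adjusted p = 0.0308). Tns4 was also the one of these 3 that fell on viscoelastic gels, by 0.51 on average (edgeR, adjusted p = 0.00407). Its value at 20 kPa was −0.88, while none of the 3 passed at 2 kPa. In the vinexin family, whose products bind vinculin, 1 of 3 genes rose and 1 fell. Sorbs2 rose by 0.37 (edgeR, adjusted p = 0.00335), and the gene that fell was at −0.28.

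The genes whose pattern over the 12 samples was most like those of Vcl, Zyx and Ilk, the 3 with the widest range of group means, were found by the root mean square difference of centred log2 CPM. For Vcl, whose own root mean square deviation was 0.318, these were Tulp4 at 0.066, Flna at 0.074 and Mms22l at 0.084. Flna, the actin crosslinker filamin A, had means of 1772, 2111, 1437 and 1278 CPM on 2 kPa Elastic, 20 kPa Elastic, 2 kPa Viscoelastic and 20 kPa Viscoelastic gels. For Zyx, at 0.185 itself, they were Myl9 at 0.064, Cnn2 at 0.073 and Prkd1 at 0.083. Myl9, a regulatory myosin light chain, had means of 52.8, 73.1, 67.6 and 65.0 CPM in these groups. For Ilk, at 0.304 itself, the nearest were Rpusd2 at 0.137, Sipa1l2 at 0.138 and Tmppe at 0.142, less close than for the other genes. Within the 10 genes, Vcl and Ilk were each other's nearest at 0.138 and Zyx and Tln2 at 0.133. Tln1 lay nearest to Bcar1 at 0.094, as did Pxn at 0.089 and Tns1 at 0.12, Bcar1 lay nearest to Pxn, Ptk2 to Parva at 0.104 and Parva to Pxn at 0.096. For Pxn and Parva, whose own deviations were 0.080 and 0.084, a flat line would have been nearer than any of the other 9 genes. These distances are descriptions over samples that share libraries.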

How the data were processed

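Polyadenylated RNA of 12 samples, 3 in each of 4 groups, was analysed from a table of raw counts. Trimmomatic, STAR with the genome mm10, and featureCounts with a GENCODE annotation were the tools with which the authors made the deposited counts, listed by gene symbol and not normalized. The release of that annotation, whether strand was used, and what was done with multimapping reads are not given in the sources used here, so genes that share exons are uncertain.

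The main test was the quasi-likelihood F test of edgeR (version 4.0.16, R version 4.3.3). The filter filterByExpr (minimum count 10, minimum total 15, large group size 10) left 14542 genes, TMM was used for scaling, and all 12 samples entered 1 fit on the 4 groups, with a biological coefficient of variation of 7.50%. P-values were adjusted by Benjamini-Hochberg over these genes, with calls under 0.05. The SE is the size of the log2 fold change divided by the square root of F. Log2 CPM for the likeness measure has a prior count of 2. The scripts were tested on simulated data. Positions, exon lengths and overlaps came from GENCODE vM21 for mm10, and length and GC trends were removed per sample with splines of 5 degrees of freedom, with both known for 94.8% of tested genes. Alternatives were DESeq2 1.42.0 and its size factors, scaling by total counts, a fit of all genes with at least 1 count, only the groups compared, the replicate number as a block, and each sample left out in turn. Named genes are the 10 genes, the called partners with the lowest adjusted p per list and those called in the interaction, and the nearest genes in pattern. Some results that this rule takes are not reported here. Tns3 and Tns4 were named for stiffness after their values were seen. The 10 genes and the lists were chosen with earlier results of these data known.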

Additional observations from a re-analysis of the deposited data

Results flagged for a closer look

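In 3 of the 10 genes the response to stiffness differed between elastic and viscoelastic gels by the edgeR interaction test over all tested genes. Over all genes 7.56% passed, 4.45% positive and 3.12% negative. The difference was taken as the log2 fold change of 20 against 2 kPa with viscoelastic gels, less the same with elastic gels. It was −0.60 for Zyx, −0.54 for Tln2 and 0.38 for Tns1. All 3 kept the call in each of 19 alternatives, with adjusted p-values of at most 0.0049, 0.00936 and 0.0382. No explanation was tested.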

How the results depend on the processing

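Of 22 calls of the 10 genes, 15 passed under each alternative, 7 were lost under at least 1 and none was reversed. The lost ones were Bcar1 at 2 kPa, Tln2 at 20 kPa and for stiffness on each gel type, and Tln1, Ptk2 and Tns1 averaged over stiffness. Bcar1 at 2 kPa was lost without replicate 1 of 2 kPa Elastic or replicate 3 of 2 kPa Viscoelastic (adjusted p = 0.0919 and 0.0513). Ptk2 was lost without replicate 2 of 2 kPa Elastic, 20 kPa Elastic or 20 kPa Viscoelastic (0.0543, 0.0587 and 0.0598). With scaling by total counts alone, Ptk2 averaged and Tln2 at 20 kPa were lost too (edgeR, adjusted p = 0.0692 and 0.0625). Tln2 at 20 kPa was lost without any 1 of the 6 samples compared (at most 0.0942), and so was Tln2 for stiffness on elastic gels (at most 0.167). The call for stiffness on elastic gels was also lost without samples outside that comparison. These were replicate 3 of 2 kPa Viscoelastic and any 1 of the 20 kPa Viscoelastic samples (at most 0.0672). Tln2 for stiffness on viscoelastic gels was lost without any 1 but replicate 2 of 2 kPa Viscoelastic (at most 0.102). Other causes were not tested. The single call for stiffness on viscoelastic gels became 0 calls with only the groups compared, with the length and GC correction, and with this correction and the replicate block, and 0 to 1 with a sample left out. Leaving out 1 sample gave 3 to 5 calls between gel types at 2 kPa, 4 to 7 at 20 kPa, 5 to 6 averaged, 2 to 3 for stiffness on elastic gels and 3 to 4 for the interaction. Over all genes the shares then ran, in that order, from 10.7% to 21.2%, 22.0% to 37.4%, 33.9% to 41.7%, 7.34% to 16.7% and 4.61% to 8.12%. For stiffness on viscoelastic gels they ran from 0.0619% to 2.42%. Without replicate 2 of 2 kPa Viscoelastic there were 7 calls at 20 kPa, Ptk2 and Bcar1 being added, beside 37.4% of all genes. Vcl at 2 kPa passed without replicate 1 of that group (−0.42, edgeR, adjusted p = 0.0311). Vcl also passed with every gene with a count at 2 kPa and in the interaction (edgeR, adjusted p = 0.0465 and 0.0322), and with only the groups compared for stiffness on elastic gels (edgeR, adjusted p = 0.0355).

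Replicate numbers did not pair the samples across all 4 groups. Deviations of samples with the same number correlated between −0.20 and 0.31. Only between both viscoelastic groups did more than 2 of 6 samples correlate best with their own number (4 of 6). There the same-number correlations were all positive, from 0.048 to 0.308. The replicate block gave 4, 5, 2, 1, 6 and 3 calls in place of 4, 5, 3, 1, 6 and 3 in the order 2 kPa, 20 kPa, stiffness on elastic gels, stiffness on viscoelastic gels, averaged and interaction, losing Tln2 on elastic gels. Over all genes 17.7%, 30.8%, 11.9%, 1.06%, 37.6% and 5.81% passed with the block, in the same order. For stiffness on viscoelastic gels 331 genes passed over the whole table, and 769 by DESeq2's Wald test, 653 with every gene with a count, 37 with only the groups compared, 154 with the replicate block, 150 with the length and GC correction and 77 with both.

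Changes of sign all concerned estimates that were not called. With the length and GC correction, alone and with the replicate block, they were as follows. Tln1 at 2 kPa was 0.0553 and 0.0543. Pxn was 0.146 and 0.146 at 2 kPa, 0.0073 and 0.0069 at 20 kPa, 0.102 and 0.102 for stiffness on elastic gels and 0.0769 and 0.0766 averaged. Parva was 0.0318 and 0.031 at 20 kPa, 0.0292 and 0.0305 for stiffness on viscoelastic gels and 0.0887 and 0.0874 averaged. Tns1 at 20 kPa was 0.131 and 0.133. Bcar1 was 0.0549 and 0.0551 for stiffness on elastic gels, 0.0256 and 0.0256 on viscoelastic gels and −0.0292 and −0.0295 in the interaction. With total counts alone, Pxn at 2 kPa was 0.0091, Tns1 at 20 kPa 0.0048, and Parva 0.0049 for stiffness on viscoelastic gels and 0.0277 averaged. For stiffness on viscoelastic gels, Tns1 was −7.05e-05 with DESeq2's size factors, −6.35e-05 by its Wald test and −0.0097 with only the groups compared, and Parva was 0.000617 with the replicate block.

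With a sample left out, stiffness on viscoelastic gels ran from −0.041 to 0.012 for Bcar1, −0.107 to 0.0639 for Parva, −0.0814 to 0.104 for Ptk2 and −0.0244 to 0.0192 for Tns1. Parva ran from −0.0166 to 0.147 at 2 kPa and −0.0418 to 0.0295 averaged. Ptk2 ran from −0.0217 to 0.0513 for stiffness on elastic gels and −0.102 to 0.0958 in the interaction, and Pxn from −0.0778 to 0.0241 and −0.0802 to 0.0226 for stiffness on elastic gels and at 2 kPa. Depth limits Ilk most, with 93 to 186 counts per sample.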
